A study of Mus musculus with 12 samples.

Results

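The 9 genes described here were grouped as oocyte growth factors and transcription factors of the mouse, with a receptor and a secreted protein among them. They are Gdf9, Bmp15, Oosp1, Kit, Figla, Nobox, Sohlh1, Lhx8 and Nr5a2. They were taken as every probe set of the array whose single gene symbol was one of these names, which gave 9 of 18193 genes named there and 15 of 45037 non-control probe sets. Of these, 12 probe sets of 7 genes passed the filter on low values, a log2 intensity above 5 (32 intensity units) on at least 3 of the 12 arrays, and were tested among 11593. Figla and Sohlh1 had no probe set that passed. The arrays measured mRNA in metaphase II eggs of CF1 mice, in 4 groups with 3 independent replicates of 30 pooled eggs each. Full-grown oocytes received a control siRNA, a pool of siRNAs against Dcp1a, a pool against Dcp2, or a mixture of both pools, called below the control, the Dcp1a knockdown, the Dcp2 knockdown and the double knockdown. All were kept in milrinone, which blocks meiotic resumption, for 20 h and then matured without it for 18 h. Decapping proteins were not measured, values were relative within an array, and a change in mRNA per egg could not be seen.

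Dcp2 is the enzyme that removes the 5′ cap of an mRNA and Dcp1a is its cofactor, so the design asked how mRNAs stored in the oocyte fare through maturation when these factors are depleted. A full-grown oocyte is nearly silent in transcription and matures on mRNA made earlier, during growth. GDF9 and BMP15 are ligands of the transforming growth factor beta family that the oocyte secretes to direct the surrounding granulosa and cumulus cells. OOSP1 is a secreted protein of the oocyte, and KIT is the receptor tyrosine kinase through which the oocyte receives Kit ligand from granulosa cells. FIGLA and SOHLH1 are basic helix-loop-helix factors, NOBOX and LHX8 are homeodomain factors, and together they turn on oocyte genes in the young follicle. NR5A2 is an orphan nuclear receptor best known in the ovary from granulosa cells.

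Because these genes include transcription factors and genes that such factors are known to bind, the promoter sequences of the members are part of their identity. The 250 bases before the RefSeq transcription start site (GRCm38.p6) were searched on both strands for the E-box CANNTG of helix-loop-helix factors, the NOBOX element TAATTG, the LHX8 element TGATTG and the NR5A element CAAGGNCA. The table of windows held 8 of the 9 genes, all but Gdf9, in 10 windows. Those of Kit (chr5:75574737-75574986 and chr5:75574741-75574990) overlap almost fully, so the windows are not all independent. The 3 windows printed belong to the genes whose array values are described most closely. They are Oosp1 (chr19:11691052-11691301, minus strand), Bmp15 (chrX:6320725-6320974, minus strand) and the first of the Nr5a2 windows (chr1:136960449-136960698, minus strand). Each is written 5′ to 3′ toward the start site, and capitals mark the matches.
Oosp1: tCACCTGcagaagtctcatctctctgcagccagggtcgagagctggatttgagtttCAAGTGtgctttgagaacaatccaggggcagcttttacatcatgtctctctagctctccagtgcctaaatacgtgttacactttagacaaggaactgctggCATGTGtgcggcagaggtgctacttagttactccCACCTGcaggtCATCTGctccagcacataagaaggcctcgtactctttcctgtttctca
Bmp15: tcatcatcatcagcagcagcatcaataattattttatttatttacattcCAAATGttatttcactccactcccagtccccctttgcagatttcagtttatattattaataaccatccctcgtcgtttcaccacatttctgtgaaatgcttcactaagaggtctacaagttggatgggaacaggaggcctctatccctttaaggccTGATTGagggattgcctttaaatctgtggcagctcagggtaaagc
Nr5a2: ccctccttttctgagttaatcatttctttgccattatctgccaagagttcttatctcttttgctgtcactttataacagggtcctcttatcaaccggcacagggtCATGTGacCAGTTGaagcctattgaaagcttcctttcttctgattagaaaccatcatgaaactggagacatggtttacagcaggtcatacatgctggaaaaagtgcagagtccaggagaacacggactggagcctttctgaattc

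E-boxes were found in 7 of the 10 member windows, against 66.2% of 32851 windows of the same length. Oosp1 and Sohlh1 each held 5 E-box matches, while 3.84% of all windows held at least 4. Those of Oosp1 began 249, 194, 93, 59 and 48 bases upstream of the start site. In the window of Sohlh1, 3 of the 5 matches read CACGTG. Bmp15 held 1 E-box, 201 bases upstream, and the only LHX8 element among the members, 45 bases upstream. LHX8 elements were in 12.7% of all windows. The first Nr5a2 window held 2 E-boxes and the other held 3, Figla and Nobox held 2 each, and Kit and Lhx8 held none. NOBOX elements (7.17% of all windows) and NR5A elements (5.53%) were in 0 member windows, and Gdf9 had no window to search. A match describes letters and not a bound site, and the arrays did not measure promoter use.

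Each target read lower where its siRNA was injected. The brightest Dcp1a probe set read 5384.8 to 12427.1 in control eggs, 589.3 to 1235.5 after Dcp1a siRNA alone and 517.7 to 1233.3 in the double knockdown. With Dcp2 siRNA alone it read 6397.2 to 10247.9. The brightest Dcp2 probe set read 30.4 to 81.8 in control eggs, 32.4 to 57.1 in the Dcp1a knockdown and 4.9 to 5.0, the floor of the scale, in both groups given Dcp2 siRNA. Within groups, r across probe sets ranged from 0.938 to 0.992 between arrays. For 4 of the 12 arrays, the 3 controls and Dcp2 knockdown replicate 2, the closest array belonged to another group. The eggs carried their label's markers: 9 of 9 oocyte markers on the array were above 32 on every array. Of 20 cumulus and granulosa markers besides Nr5a2, 19 were at or under 32 on every array, with Amh, Fshr and Inha at 4.9. The exception was Kitl, at 19.7 to 47.8.

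Against control eggs no member mRNA passed the test in any knockdown. The limma test with Benjamini-Hochberg adjustment called 0 of 12 member probe sets in the Dcp1a knockdown, where 0.0518% of all tested probe sets were called. It called 0 of 12 after Dcp2 siRNA alone (0.0173% of all) and 0 of 12 in the double knockdown, where 8.72% of all were called. At an unadjusted p under 0.05 the member counts in these comparisons were 0, 1 and 0, against 4.92%, 11.1% and 27.8% of all tested probe sets. The smallest adjusted p among members was 0.853, 0.425 and 0.237. Their median log2 change was 0.18, -0.14 and -0.23, beside 0.09, -0.11 and -0.02 over all tested probe sets. These comparisons share the control arrays. Without control replicate 1 the calls over all probe sets rose from 6 to 372, 2 to 223 and 1011 to 2451, in the same order. With Dcp2 knockdown replicate 2 left out too they were 627, 2419 and 3215, and 0 members were called in either case. Members whose arrays did not overlap with control numbered 2 in the Dcp1a knockdown (11.6% of all probe sets), 1 after Dcp2 siRNA alone (7.38%) and 2 in the double knockdown (24.8%). The 7 genes with a tested probe set are described by role.

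**Figure D1:**
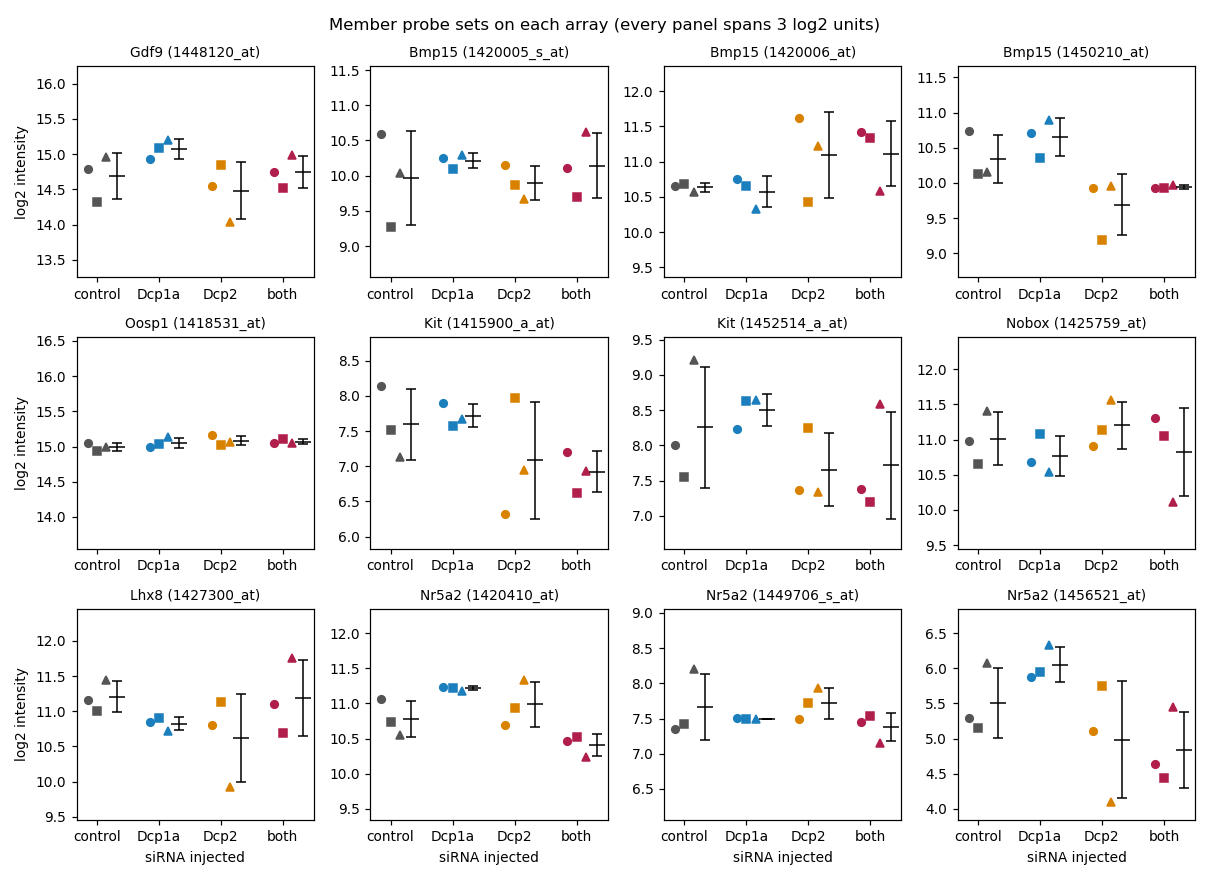
Log2 intensity of the 12 tested member probe sets on each array, by siRNA injected; circles, squares and triangles are replicates 1, 2 and 3, and the black mark is the mean ± SD of 3 arrays. Every panel spans 3 log2 units, so Oosp1 appears almost flat and the Kit panels wide.

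The mRNA of the secreted protein OOSP1 was among the steadiest in these eggs. Its probe set read 33836.2, 31245.5 and 32534.6 in control replicates 1 to 3 and 32619.9, 33678.0 and 35983.1 in the Dcp1a knockdown. It read 36566.2, 33412.7 and 34190.0 after Dcp2 siRNA alone and 34100.4, 35363.1 and 33801.0 in the double knockdown. The highest of the 12 arrays was 1.17 times the lowest, and the SD within groups was 0.06 on the log2 scale. Of all tested probe sets 0.535% had a smaller SD, and among the 200 probe sets nearest in mean level, 10 did (their median was 0.16). The log2 change in the double knockdown against control was 0.08 ± 0.14 (SE, 95% interval -0.22 to 0.38). In the single knockdowns it was 0.07 after Dcp1a siRNA and 0.09 after Dcp2 siRNA. All 4 groups overlapped.

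Gdf9, the growth factor without which follicles do not pass the primary stage, was bright on all arrays, and no difference passed. Its probe set read 28318.9, 20544.6 and 31822.8 in control eggs and 31167.3, 34699.0 and 37826.1 in the Dcp1a knockdown. It read 23958.4, 29354.6 and 16856.2 after Dcp2 siRNA alone and 27364.8, 23585.4 and 32357.2 in the double knockdown. Every Dcp1a knockdown array lay above every Dcp2 knockdown array, and each other pair of groups overlapped. Bmp15 1450210_at and Nr5a2 1456521_at showed the same order of these single knockdowns. The single knockdowns were not tested against each other, and the share of all probe sets that separates them was not counted. The double knockdown differed from control by 0.06 ± 0.24 log2 units (SE, 95% interval -0.48 to 0.59). After Dcp1a siRNA alone the difference was 0.38 ± 0.24 (adjusted p = 0.853, limma) and after Dcp2 siRNA alone -0.21 ± 0.24 (adjusted p = 0.642). Gdf9 varied more than Oosp1: its SD within groups was 0.29, and 171 of the 200 probe sets nearest in level had a smaller one.

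Bmp15, the X-linked partner of Gdf9 that regulates cumulus cells, was read by 3 probe sets that did not follow each other. The probe set 1450210_at read 1707.1, 1118.4 and 1135.9 in control eggs and 1669.1, 1313.7 and 1893.4 in the Dcp1a knockdown. It read 969.3, 584.3 and 994.1 after Dcp2 siRNA alone and 972.4, 978.4 and 1005.8 in the double knockdown. All 6 arrays given Dcp2 siRNA were thus below all 6 others, and none of these differences passed the test. The share of all tested probe sets separated in this way was not counted. Pairs of groups often did not overlap, in either direction. This held for 7.38% of all probe sets in the Dcp2 knockdown against control and 24.8% in the double knockdown against control. For the double against the Dcp1a knockdown it was 48.6%. In the Dcp2 knockdown the level was 63.8% of control (log2 -0.65 ± 0.25, SE, adjusted p = 0.425, limma). The double knockdown differed from control by -0.39 ± 0.25 (adjusted p = 0.310) and from the Dcp1a knockdown by -0.71 ± 0.25 (adjusted p = 0.0897). The last of these passed without Dcp2 knockdown replicate 2 (0.0415) and with the variance from the compared arrays (0.0273). Calls over all probe sets in that comparison rose too, from 1398 to 2162 and to 2779, in the same order.

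The probe set 1420006_at gave higher, not lower, means where Dcp2 siRNA was present. It read 1611.7, 1644.0 and 1512.4 in control eggs and 1725.9, 1608.5 and 1279.1 in the Dcp1a knockdown. It read 3160.7, 1381.4 and 2391.1 after Dcp2 siRNA alone and 2741.1, 2596.4 and 1531.2 in the double knockdown, so these groups overlapped with control. The differences from control were 0.46 ± 0.31 after Dcp2 siRNA alone (adjusted p = 0.472, limma) and 0.48 ± 0.31 in the double knockdown (adjusted p = 0.311). The third probe set, 1420005_s_at, ranged from 616.5 to 1573.7, both ends lying in single arrays of the control and double knockdown groups. Its changes against control were 0.25 after Dcp1a siRNA, -0.07 after Dcp2 siRNA and 0.18 after both.

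The opposite signs can be read on each array as the log2 value of 1420006_at minus that of 1450210_at. This difference was -0.08 to 0.56 in control eggs (mean 0.30 ± 0.34, SD, n = 3) and -0.57 to 0.29 in the Dcp1a knockdown (mean -0.08 ± 0.44). It was 1.24 to 1.71 after Dcp2 siRNA alone (mean 1.40 ± 0.26), and it was 0.61 to 1.50 in the double knockdown (mean 1.17 ± 0.49). The 6 arrays given Dcp2 siRNA therefore all lay above the other 6. Among 5409 pairs of tested probe sets of the same gene, 114 (2.11%) separated the arrays in this way, as did 1 of the 7 member pairs. This pair was singled out after its values were seen, so no test is given. The probes' positions on the transcript were not used here, and the Bmp15 mRNA level after Dcp2 siRNA has no single direction in these arrays.

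**Figure D2:**
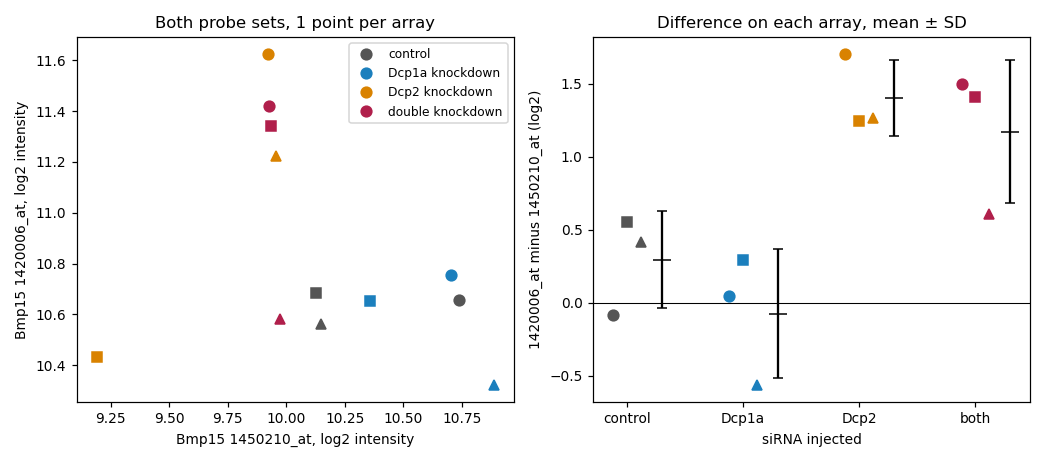
Left, log2 intensity of the Bmp15 probe set 1420006_at against that of 1450210_at, 1 point per array (circle, square and triangle for replicates 1, 2 and 3); right, their log2 difference by siRNA injected, with the mean ± SD of 3 arrays. The difference is 0.61 or more on each array given Dcp2 siRNA and 0.56 or less on each of the others.

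Kit, the receptor for Kit ligand, had lower means in both groups given Dcp2 siRNA, with a wide spread among replicates. Its probe set 1415900_a_at read 282.2, 182.8 and 140.7 in control eggs and 238.6, 191.3 and 204.2 in the Dcp1a knockdown. It read 80.1, 251.7 and 124.0 after Dcp2 siRNA alone and 148.1, 98.5 and 122.5 in the double knockdown. Double knockdown arrays were all below those of the Dcp1a knockdown, while they overlapped with control. The log2 difference was -0.67 ± 0.38 against control (SE, adjusted p = 0.261, limma) and -0.79 ± 0.38 against the Dcp1a knockdown (adjusted p = 0.179, and 0.0294 with the variance from the compared arrays). That variance also raised the calls over all probe sets against the Dcp1a knockdown, from 1398 to 2779.

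The probe set 1452514_a_at ranged from 187.4 to 595.4 in control eggs, 300.8 to 401.0 in the Dcp1a knockdown, 145.9 to 383.5 in the double knockdown and 162.4 to 305.2 in the Dcp2 knockdown. Its change in the double knockdown was -0.54 ± 0.47 (adjusted p = 0.445, limma), of the same sign as the first probe set. The highest array was 3.52 times the lowest for 1415900_a_at and 4.08 times for 1452514_a_at. Within groups their SDs were 0.52 and 0.64, larger than those of 75.1% and 87.7% of tested probe sets, so a change of the size seen could not be told from the spread. Kitl, the ligand, changed by -0.49 ± 0.33 in the double knockdown (adjusted p = 0.334, limma), near the floor.

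The homeodomain factor genes Nobox and Lhx8 were above the filter on every array, and none of their differences passed. Nobox read 2020.4, 1607.0 and 2701.9 in control eggs, 1646.2, 2159.8 and 1483.3 after Dcp1a siRNA alone, 2542.0, 2118.1 and 1105.4 in the double knockdown and 1923.2, 2251.1 and 3037.1 in the Dcp2 knockdown. All 4 groups overlapped, and the change in the double knockdown was -0.19 ± 0.33 (SE, 95% interval -0.90 to 0.53). Lhx8 read 2297.8, 2061.1 and 2783.8 in control eggs, 1849.8, 1907.8 and 1688.7 after Dcp1a siRNA alone, 2201.4, 1657.5 and 3465.3 in the double knockdown and 1795.0, 2239.3 and 967.2 in the Dcp2 knockdown. Every Dcp1a knockdown array was below every control array for Lhx8, by -0.38 ± 0.33 log2 units on average (adjusted p = 0.853, limma). The change after Dcp2 siRNA alone was -0.59 ± 0.33 (adjusted p = 0.431) and after both siRNAs -0.02 ± 0.33 (adjusted p = 0.974). The interaction is how far the double knockdown departs from adding up both single changes. For Lhx8 it was 0.95 ± 0.46 and did not pass (adjusted p = 0.499, limma).

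Figla and Sohlh1, the helix-loop-helix factor genes of early follicles, were not above the filter in these eggs. The Figla probe set ranged from 5.1 to 14.5 over the 12 arrays and read 5.6, 5.8 and 14.5 in control eggs. The Sohlh1 probe set read 5.0 on every array. At such values a level is only a bound, and no change could be measured.

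Nr5a2 was the one member with a called difference. Its probe set 1420410_at read 2130.7, 1707.1 and 1498.8 in control eggs and 2418.0, 2384.1 and 2324.2 in the Dcp1a knockdown. It read 1663.1, 1951.5 and 2579.7 after Dcp2 siRNA alone and 1407.9, 1473.7 and 1202.6 in the double knockdown. All 3 Dcp1a knockdown arrays were above all control arrays, and all 3 double knockdown arrays were below every array of the other groups.

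Relative to the Dcp1a knockdown, Nr5a2 fell in the double knockdown to 57.1% (log2 -0.81 ± 0.20, SE, 95% interval -1.25 to -0.36, adjusted p = 0.0252, limma). This was the only member called there, against 12.1% of all tested probe sets and 3.79% called lower. At an unadjusted p under 0.05 there were 3 members, against 31.8% of all, and 4 had groups that did not overlap, against 48.6% of all. The Nr5a2 call was lost when any of the 3 Dcp1a knockdown arrays or double knockdown replicate 1 or 2 was left out (adjusted p 0.0585 to 0.0849). Median centring (0.0673), quantile normalization (0.0613) and testing without a filter (0.0706) ended it too, while the log2 change stayed between -0.87 and -0.70.

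Against the other groups Nr5a2 did not pass. The double knockdown differed from control by -0.38 ± 0.20 (95% interval -0.82 to 0.07, adjusted p = 0.237, limma) and from the Dcp2 knockdown by -0.58 ± 0.20 (adjusted p = 0.151). Among the members 0 were called against the Dcp2 knockdown, where 6.37% of all probe sets were, 1 was under an unadjusted p of 0.05 (15.8% of all), and 1 did not overlap (21.2% of all). The Dcp1a knockdown differed from control by 0.43 ± 0.20 (95% interval -0.01 to 0.88, adjusted p = 0.853). The interaction was -1.01 ± 0.29 (unadjusted p = 0.00452, adjusted p = 0.0886). For the interaction 0 of 12 members were called against 3.93% of all probe sets, with 1 member under an unadjusted p of 0.05 against 11.6% of all. Without control replicate 1 the interaction of Nr5a2 passed, at -1.15 (adjusted p = 0.0400), while interaction calls over all probe sets rose from 456 to 626.

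Dimmer Nr5a2 probe sets gave the same signs in the double knockdown and did not pass with all arrays. The probe set 1456521_at read 58.5, 61.4 and 80.7 after Dcp1a siRNA alone and 25.0, 21.6 and 43.8 in the double knockdown, which did not overlap. The log2 difference was -1.21 ± 0.42 (adjusted p = 0.0831, limma). It passed without Dcp2 knockdown replicate 2 (0.0445) or 3 (0.0408) or double knockdown replicate 3 (-1.51, adjusted p = 0.0388), and with the variance from the compared arrays (0.0314). In the same order, calls over all probe sets rose from 1398 to 2162, 1639, 2298 and 2779. In control eggs 1456521_at read 39.3, 35.5 and 67.6 and in the Dcp2 knockdown 34.4, 53.9 and 17.2. Several of these values lie near the 32 units of the filter. The probe set 1449706_s_at ranged from 142.4 to 293.7, with a difference of -0.12 ± 0.23 between the double and Dcp1a knockdowns. It read exactly 179.9 on 3 arrays, and 8.27% of tested probe sets likewise shared a value above 32 on 3 or more arrays. The remaining Nr5a2 probe set, 1449707_at, was at the floor, 4.9 to 5.1.

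As Nr5a2 is also a granulosa cell gene, the summed level of the 20 other cumulus and granulosa markers is given beside it. The sum was 120.9 to 146.9 in control eggs, 130.3 to 140.3 in the Dcp1a knockdown, 118.6 to 131.5 in the double knockdown and 123.1 to 139.0 in the Dcp2 knockdown. As 19 of the 20 were at or under 32 on every array, it is made largely of Kitl and values near the floor. Kitl read 19.7 to 47.8, and Amh, Fshr and Inha were at the floor of 4.9 on all 12 arrays. Of 14 markers of other ovarian cells and blood, 13 were at or under 32 on every array, and Kdr read 38.3 to 62.1. Nr5a2 1420410_at read at least 1202.6 on each array. A granulosa source of the Nr5a2 signal was not tested.

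**Figure D3:**
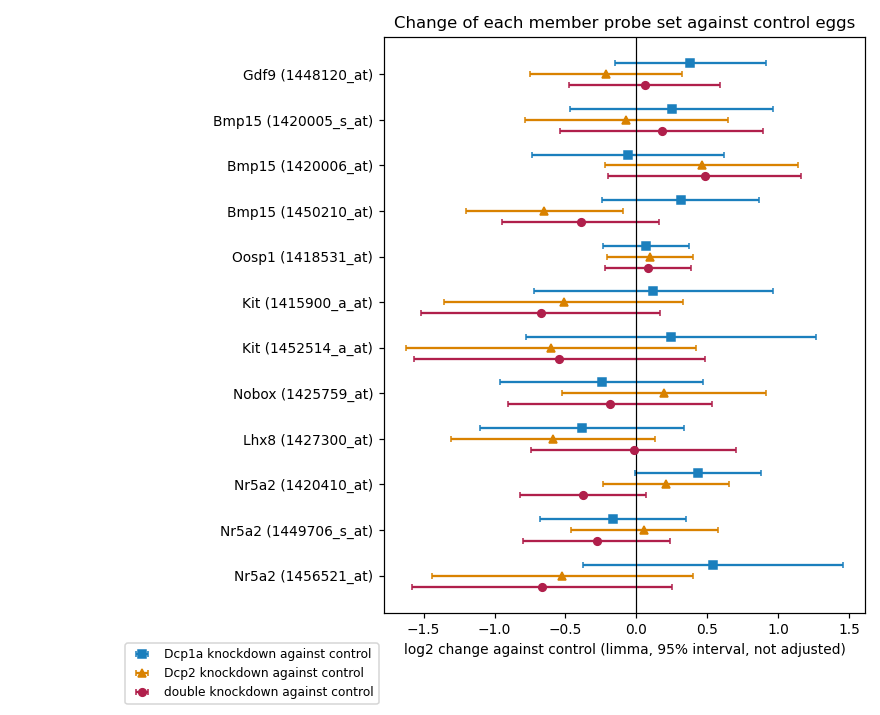
Log2 change of each tested member probe set against control eggs (x axis), with the unadjusted 95% interval of the limma fit; squares are the Dcp1a, triangles the Dcp2 and circles the double knockdown. Only the Dcp2 knockdown interval of Bmp15 1450210_at leaves out 0, and after adjustment it did not pass.

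The remaining genes of the pathways in which the members act were read from lists, each gene by its tested probe set with the highest mean. No gene of the 5 lists was called in either single knockdown against control. In the TGF-beta and BMP pathway, 0 of 24 tested genes besides the members were called in the double knockdown, with a median log2 change of 0.00 and 2 genes under an unadjusted p of 0.05. Acvr2b, an activin receptor, read 207.3, 21.4 and 47.7 in control eggs and 234.1, 270.5 and 172.8 in the double knockdown (log2 1.90 ± 0.62, SE, adjusted p = 0.0831, limma). Control replicate 1 alone overlapped with the double knockdown, and without it the change was 2.80 (adjusted p = 0.00118). Leaving that array out also raised the calls over all probe sets, from 1011 to 2451. The same holds for each gene below that passed without it. Tgfb3, a ligand, changed by 1.02 ± 0.44 (adjusted p = 0.165, limma), and by 1.47 without control replicate 1 (adjusted p = 0.0290).

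Among 24 tested genes of KIT signalling 0 were called in the double knockdown, with 6 under an unadjusted p of 0.05 and a median log2 change of 0.02. Mtor, the growth kinase, read 727.5 to 1198.2 in control eggs and 1240.9 to 1549.5 in the double knockdown, without overlap (0.66 ± 0.20, adjusted p = 0.0679, limma). Rictor, its partner in the second mTOR complex, read 492.4 to 1037.3 and 252.9 to 486.6, again without overlap (-1.17 ± 0.40, adjusted p = 0.0943). Both passed when control replicate 1 was left out (adjusted p = 0.00659 and 0.0356), where calls over all probe sets rose from 1011 to 2451. Rictor also passed without Dcp2 knockdown replicate 2 (0.0414), and Mtor after quantile normalization (0.0454). Over all probe sets these settings gave 1289 and 1067 calls.

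In the oocyte transcription factor network 0 of 14 tested genes were called against control (2 under an unadjusted p of 0.05, median log2 change 0.00). Taf4, a TFIID subunit, changed by -0.76 ± 0.32 (adjusted p = 0.161, limma) and Pou5f1, a factor of oocytes and pluripotent cells, by 0.80 ± 0.35 (adjusted p = 0.172). Taf4 passed without double knockdown replicate 3 (-1.11, adjusted p = 0.0405) and Pou5f1 without control replicate 1 (1.27, adjusted p = 0.00700). Leaving out double knockdown replicate 3 raised the calls over all probe sets from 1011 to 1184. Against the Dcp1a knockdown 1 of the 14 fell: Sohlh2, the partner of Sohlh1. It read 156.1, 197.0 and 215.8 after Dcp1a siRNA alone and 112.7, 92.8 and 127.0 in the double knockdown (-0.77 ± 0.23, adjusted p = 0.0489). That call was lost on leaving out any 1 of 9 arrays: all 3 controls, all 3 Dcp1a knockdown arrays, Dcp2 knockdown replicate 1, or double knockdown replicate 1 or 2. It was lost too under the replicate block (adjusted p = 0.0819), without a filter (0.164), with the filter at log2 above 6 (0.0518) and with a variance trend (0.0521). Among the nuclear receptors and coregulators 0 of 9 were called (3 under an unadjusted p of 0.05, median 0.14), with Nr6a1, the germ cell nuclear factor, at 1.32 ± 0.40 (adjusted p = 0.0640) and Ctnnb1, which encodes beta-catenin, at -0.44 ± 0.17 (adjusted p = 0.137). Nr6a1 passed under median centring (0.0477), quantile normalization (0.0440) and without control replicate 1 (1.86, adjusted p = 0.00224).

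Several genes rose in the list called oocyte-specific target genes, whose genes were not each checked to be targets of these factors. Among 36 tested, 8 rose and 0 fell in the double knockdown against control (22.2%, beside 6.62% called higher among all probe sets), and their median log2 change was 0.29. Zp2, a zona pellucida glycoprotein, read 1666.9, 978.5 and 3472.5 in control eggs and 7547.4, 8336.0 and 6746.9 in the double knockdown (log2 2.08 ± 0.42, SE, adjusted p = 0.0122, limma). Zp3, another zona glycoprotein, read 2369.8, 734.9 and 3658.3 and then 8034.7, 9075.5 and 7494.8 (2.14 ± 0.47, adjusted p = 0.0187). No control array reached the double knockdown arrays for either gene.

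Tle6, a subunit of the subcortical maternal complex, rose by 1.47 ± 0.32 (adjusted p = 0.0184, limma). Gpr3, the receptor that keeps oocytes in meiotic arrest, rose by 1.47 ± 0.33 (adjusted p = 0.0195), from 216.7 to 475.2 in control eggs to 560.1 to 1048.4. Astl, Gja4, Fgf8 and Ybx2 were the other 4. The calls of Zp3 and Tle6 were lost without double knockdown replicate 1 or 2, that of Zp2 without replicate 2, and that of Gpr3 without either of these or control replicate 2. Gja4 and Ybx2 lost theirs without control replicate 2 or 3 or double knockdown replicate 1 or 2, and Astl without control replicate 2 or any double knockdown array. Fgf8 lost its call without any 1 of 9 arrays (all but control replicate 1 and Dcp2 knockdown replicates 2 and 3), under other scaling and under the block. All 8 calls were lost without a filter and with the variance taken from the compared arrays only.

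Against the Dcp1a knockdown, Zp2, Zp3, Fgf8 and Izumo1r, the egg receptor for sperm, rose and Dazl fell, 5 of 36 tested genes (13.9%), a share near the 12.1% of all probe sets called in that comparison. Dazl, a germ cell translation regulator, read 4956.2, 5300.1 and 6310.5 after Dcp1a siRNA alone and 2243.2, 1279.3 and 3998.3 in the double knockdown (-1.28 ± 0.36, adjusted p = 0.0427, limma). All 5 calls were lost without a filter (Zp2 adjusted p = 0.0764, the others 0.140 to 0.227). Leaving out single arrays ended every call but that of Zp2: the others were lost without any of the 3 Dcp1a knockdown arrays or double knockdown replicate 1 or 2. Dazl and Fgf8 also lost theirs without control replicate 2 or Dcp2 knockdown replicate 1, Dazl without control replicate 3, and Fgf8 without double knockdown replicate 3. Under the replicate block Dazl (0.0770) and Fgf8 (0.0820) did not pass. Against the Dcp2 knockdown Zp2 alone rose (1.80 ± 0.42, adjusted p = 0.0261, limma, 1 of 36, 2.78%, beside 6.37% of all). That call was lost without Dcp2 knockdown replicate 2 or 3 or any double knockdown array, under the replicate block (0.0587) and without a filter (0.176). For the interaction 0 of 36 passed (2 under an unadjusted p of 0.05). These lists were chosen with results of these arrays known, so their counts describe the genes and are no independent evidence. The oocyte markers, which share genes with this list, summed to 43091.9 to 62818.3 in control eggs and 80103.9 to 81666.0 in the double knockdown. They summed to 64845.6 to 72927.9 in the Dcp1a knockdown, also above control, and 44600.9 to 59392.7 in the Dcp2 knockdown. The part of these markers in the rises was not tested.

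**Figure D4:**
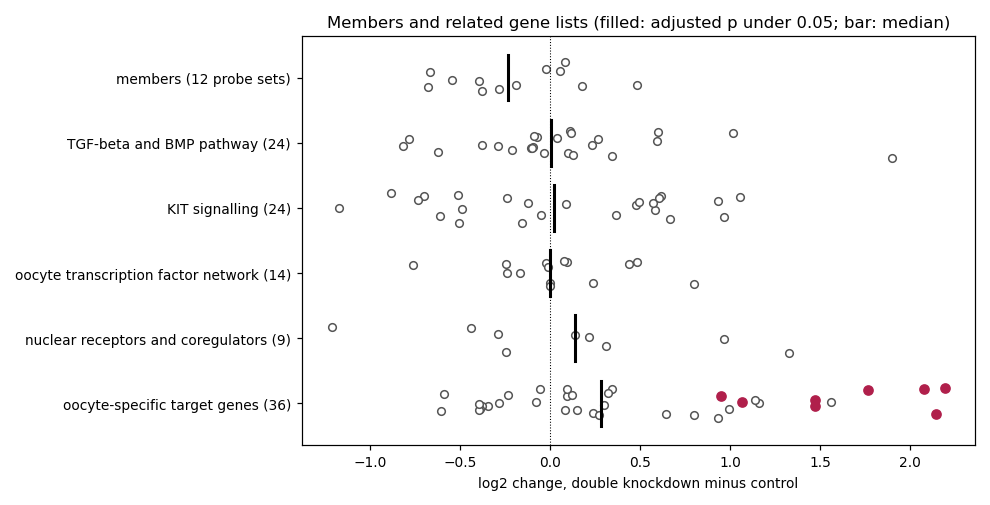
Log2 change in the double knockdown against control for the 12 tested member probe sets and for the tested genes of each related list, 1 point per probe set or gene; filled points had an adjusted p under 0.05 and the bar is the median. The 8 filled points all belong to the oocyte-specific target genes and all lie to the right of 0.

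Genes whose pattern over the 12 arrays lay closest to each member were found by the root mean square difference of their log2 values, each centred on its own mean. For Oosp1 they were Spin1 (0.04) and Rab3a (0.04), and for Gdf9 Plat (0.10) and Mmadhc (0.10), all in log2 units. For Bmp15, by 1420006_at, they were Krt12 (0.14) and Cox5b (0.17), and for Kit, by 1452514_a_at, Cltc (0.19) and Sqle (0.20). Nobox lay closest to Cux1 (0.22) and Bms1 (0.23), and Lhx8 to Pcgf3 (0.17) and Uqcrh (0.18). Nr5a2, by 1420410_at, lay closest to Daxx (0.17) and Hira (0.17). Each distance is to be read against the member's own root mean square spread around its mean, 0.06 for Oosp1 and 0.63 for Kit. Pearson r was 0.79 and 0.75 for the genes nearest Oosp1, the lowest here, and 0.95 and 0.96 for those nearest Kit. The arrays share their normalization, and likeness of this kind was taken from all tested probe sets and says nothing of control.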

How the data were processed

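RNA of 30 eggs per sample was amplified and hybridised to Affymetrix mouse arrays, per the labels' protocols. The authors deposited 1 linear intensity value per probe set and array, made with GCRMA (background correction by probe sequence, normalization between arrays, summarisation), per the submitters' processing notes. No version of GCRMA was found (not given in the sources used here). Weak signals are pulled to a floor: 55.6% of values were at or under 5 units. The number of arrays limits precision.

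The deposited intensity values were taken to log2, and 64 of 45101 probe sets, the controls, were left out. Tests used the R 4.3.3 package limma 3.58.1 (lmFit; eBayes, no trend), with 1 mean for each of the 4 groups and all 12 arrays sharing the variance (residual degrees of freedom 8, prior 2.97), two-sided, with Benjamini-Hochberg adjustment over 11593 probe sets and a threshold of 0.05. The 6 comparisons set 3 knockdowns against control and the double knockdown against either single one, and tested the interaction. Intervals are at 95% and not adjusted. The procedure was tested on simulated data.

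Members and lists were chosen with earlier results of these data known. Named were all member probe sets, Dcp1a and Dcp2, the 2 genes most like each member, and from each list up to 4 genes past the threshold in the double knockdown against control (smallest p), or, where fewer than 2 passed, the 2 of smallest p. List genes called in any other comparison, the remaining 4 called genes of the list of oocyte-specific target genes and the markers were also named. Probe sets took their gene from the platform annotation, and all 9 symbols matched RefSeq. Alternatives were other scaling, filters, floor, pseudocount and variance settings, a replicate block, and leaving out arrays.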

Additional observations from a re-analysis of the deposited data

Results flagged for a closer look

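For Nr5a2 (1420410_at) the mean change by Dcp1a siRNA had opposite signs without and with Dcp2 siRNA. Neither change passed limma's test: 0.43 without it (adjusted p = 0.853) and -0.58 with it (adjusted p = 0.151). This pattern was found by looking through all tested member probe sets, and its share over all probe sets was not counted. Without Dcp2 siRNA all 3 Dcp1a knockdown arrays were above all 3 control arrays, and with it all 3 double knockdown arrays were below all 3 Dcp2 knockdown arrays. The difference between these effects, the interaction, was -1.01 log2 units, and it did not pass limma's test (adjusted p = 0.0886). The dimmer probe set 1456521_at changed by 0.54 without and -0.14 with Dcp2 siRNA (interaction -0.68, adjusted p = 0.868, limma). For 1449706_s_at the direction did not differ: -0.16 without and -0.34 with Dcp2 siRNA (interaction -0.17, adjusted p = 0.960, limma).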

How the results depend on the processing

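Over 72 member log2 changes and 1566 alternative values, 1546 kept their side of the threshold, 9 lost a call, 11 gained one and 0 turned a called direction. Only 1 of the 72 was called in the main fit, so most of the 1546 were uncalled changes that stayed uncalled. The 9 losses all fell on that call, Nr5a2 1420410_at in the double against the Dcp1a knockdown. It was kept in 13 of 22 alternatives. The sign never changed in 44 of the 72. For the double against the Dcp1a knockdown the member count of 1 became 0 under median centring, quantile normalization and no filter, and 4 both with control replicate 1 and Dcp2 knockdown replicate 2 left out together and with the variance from the arrays compared. Over all probe sets the count rose as well, from 1398 to 2672 with these arrays left out and to 2779 with that variance. Leaving out 1 array gave 0 to 3 member calls in that comparison (702 to 2298 over all probe sets). For the interaction it gave 0 to 1 against 0 (252 to 626 over all). The other 4 comparisons had 0 member calls throughout. The alternatives for named genes of the related lists were chosen after seeing the data.

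Replicate numbers did not pair the arrays: the deviations of same-numbered arrays correlated between -0.685 and 0.394 (median 0.0854, 18 pairs). With the replicate number as a block, the member count for the double against the Dcp1a knockdown was 0 (Nr5a2 adjusted p = 0.0576), and all other member counts stayed at 0.

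Counts over all probe sets moved further. For the double knockdown they ran from 277 to 3215 against control (527 without a filter, 444 without double knockdown replicate 2, 2451 when control replicate 1 was left out), and median centring gave 699 higher and 364 lower. They ran from 702 to 2779 against the Dcp1a and 471 to 863 against the Dcp2 knockdown, from 160 to 683 for the interaction, from 0 to 627 for the Dcp1a and from 0 to 2419 for the Dcp2 knockdown against control. The counts of 627 and 2419 came with control replicate 1 and Dcp2 knockdown replicate 2 left out together. Median centring moved the median of all probe sets by -0.12 and 0.17 in the Dcp1a and Dcp2 knockdowns against control and by -0.21 for the double against the Dcp2 knockdown.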
